A study of Mus musculus with 12 samples.

Results

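The metallothioneins *Mt1* and *Mt2*, the zinc-sensing transcription factor *Mtf1* and the zinc exporter *Slc30a1* (ZnT1) were followed across 4 conditions of B16-F10 Cas9 cells, a mouse melanoma line that expresses Cas9. The members were the rows of the expression matrix that carry these gene names, 4 of the 23022 genes listed, and all 4 passed the filter on low values (at least 1 TPM in at least 3 libraries), which kept 11663 genes. The groups were untreated NTC cells, IFNγ-treated NTC cells, untreated *Mbnl* DKO cells and IFNγ-treated *Mbnl* DKO cells, with 3 libraries in each and 12 in all. NTC cells carry a control guide RNA (written as no template control in the labels and non-targeting control in the methods), and DKO cells received a paired-guide RNA against *Mbnl1* and *Mbnl2*, which encode the MBNL splicing regulators. Every group shares the Cas9 transgene, since all cells descend from a Cas9-expressing clone. The edited cells were a polyclonal population in which blotting still showed MBNL protein, so DKO stands for reduced MBNL and not for its absence. Values are TPM (transcript abundance per library), in which a gene's reads are divided by its length and expressed as a share of the library. Since TPM carry no read depth, the precision given here is the scatter among libraries of a group. Nothing in the labels says whether the 3 libraries of a group came from separate cultures, and the p-values measure the spread between these libraries, which may be technical.

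Metallothioneins are small proteins rich in cysteine that bind zinc and copper and hold free zinc low in the cytosol. When zinc rises, MTF-1 moves to the nucleus, binds metal response elements and switches on the metallothionein genes and *Slc30a1*, whose product pumps zinc out of the cell across the plasma membrane. Metallothioneins also respond to glucocorticoids and oxidative stress, and *MT2A*, the human counterpart of *Mt2*, is known as an interferon-inducible gene.

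*Mbnl1* averaged 56.5 TPM in untreated NTC and 42.1 TPM in untreated DKO libraries, and *Mbnl2* averaged 102.5 and 89.1 TPM, so RNA of both targeted genes was lower in DKO cells by 0.41 and 0.20 on the log2 scale (limma, adjusted p = 2.54e-05 and 0.00937). The IFNγ-inducible genes *Irf1*, *B2m*, *Psmb9* and *Gbp2*, used as a check of the treatment, rose with IFNγ in both genotypes. Over the 5 genes of the check list, the median log2 rise was 2.55 in NTC and 1.52 in DKO cells. All 5 rose less in DKO cells, and 2 were called in the limma test of that difference. The 7 melanocyte markers were all detected and summed to between 16647 and 18643 TPM in NTC and between 11124 and 12414 TPM in DKO libraries. Of 7 markers of other cell types, 5 were at 0 in every group and the sum stayed between 1.65 and 7.11 TPM. The leukocyte markers *Ptprc* and *Cd3e* were at 0, while *Cd68* rose in DKO libraries (0.45 without IFNγ and 1.10 with it, limma adjusted p = 0.0194 and 3.27e-05).

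All members lie on the plus strand of GRCm38 in the GENCODE M21 annotation. *Mt2* (chr8:94172664-94173568) and *Mt1* (chr8:94179082-94180327) are neighbours with 5513 bases and no annotated gene between them, and *Mt3* (chr8:94152607-94154146) and *Mt4* (chr8:94137197-94139031) lie before them in the same cluster. *Mtf1* spans chr4:124802104-124849800 and *Slc30a1* spans chr1:191906767-191913247. The coding sequences of *Mt1* and *Mt2*, taken from GENCODE M21 transcripts and shown because the comparison of these neighbours rests on telling their reads apart, are printed with the bases at which they differ in capitals.
Mt1 coding: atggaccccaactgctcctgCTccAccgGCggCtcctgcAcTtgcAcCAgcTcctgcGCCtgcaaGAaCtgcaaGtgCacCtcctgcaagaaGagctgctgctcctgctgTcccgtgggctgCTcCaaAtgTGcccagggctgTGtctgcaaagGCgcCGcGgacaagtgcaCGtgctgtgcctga
Mt2 coding: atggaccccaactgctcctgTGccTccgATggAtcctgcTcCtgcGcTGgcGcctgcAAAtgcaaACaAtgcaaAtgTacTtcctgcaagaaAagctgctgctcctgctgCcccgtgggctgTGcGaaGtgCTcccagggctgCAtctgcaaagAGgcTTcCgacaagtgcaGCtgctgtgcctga
Both have 61 codons before the stop codon, of which 20 encode cysteine, the residue that holds the metal. They differ at 38 of 186 bases (79.6% identical), and the longest identical run is 20 bases. No stretch of 50 bases in any annotated *Mt1* transcript came within 2 mismatches of an *Mt2* transcript, so reads of that length can be assigned to 1 gene or the other. The reads were counted without strand, and 45.8% of the 50-base stretches of *Mt2* are also part of the antisense gene *Gm45774*, which is not among the listed genes. *Mtf1* overlaps *1110065P20Rik* (16.6 to 25.8 TPM) and *Slc30a1* overlaps *1700034H15Rik* (0.14 to 0.26 TPM) on the opposite strand, and reads of such partners cannot be told apart in unstranded libraries.

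The 250 bases before the RefSeq start (GRCm38.p6, plus strand) of the 3 members with a metal response element core are printed with the cores in capitals. The windows are chr8:94178839-94179088 for *Mt1*, chr8:94172368-94172617 for *Mt2* and chr1:191906531-191906780 for *Slc30a1*, and RefSeq promoters were matched for 4 of the 4 members. They are shown because these cores are the sites through which MTF-1 is known to act.
Mt1 promoter: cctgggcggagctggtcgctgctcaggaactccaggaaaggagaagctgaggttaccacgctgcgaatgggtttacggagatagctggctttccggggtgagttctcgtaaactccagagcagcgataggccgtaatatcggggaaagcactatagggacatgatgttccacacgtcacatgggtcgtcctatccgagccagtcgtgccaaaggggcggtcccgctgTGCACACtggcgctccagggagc
Mt2 promoter: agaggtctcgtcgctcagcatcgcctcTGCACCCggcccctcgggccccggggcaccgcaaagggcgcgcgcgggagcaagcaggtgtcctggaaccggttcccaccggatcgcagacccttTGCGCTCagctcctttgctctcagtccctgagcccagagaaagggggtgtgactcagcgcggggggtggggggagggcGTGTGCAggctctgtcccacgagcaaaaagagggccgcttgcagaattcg
Slc30a1 promoter: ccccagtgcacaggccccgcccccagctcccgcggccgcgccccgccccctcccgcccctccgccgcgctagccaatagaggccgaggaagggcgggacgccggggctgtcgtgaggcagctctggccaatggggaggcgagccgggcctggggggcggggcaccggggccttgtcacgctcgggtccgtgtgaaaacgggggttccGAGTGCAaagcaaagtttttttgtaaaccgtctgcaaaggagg
The core was searched as TGCACNC or TGCGCNC on both strands in windows of 300 bases that include 50 bases after the start. *Mt2* held 4 matches, *Mt1* held 3, *Slc30a1* held 2 and *Mtf1* held 0. Of 32851 RefSeq promoters of the same length, 25.7% held at least 1 match, 7.11% at least 2, 1.97% at least 3 and 0.517% at least 4. Past the start of the reference *Mt1* transcript, 4 matches lay in the 229 bases before its start codon, and 3 lay in the 184 bases before the start codon of *Mt2*. For *Mt1* these bases overlap the end of the window, so the same match can be in both counts and the counts do not add up. The 2 other annotated *Mt1* transcripts start further along, at positions 94179211 and 94179241, so the window may not hold the whole *Mt1* promoter and the counts of matches depend on the annotated starts. The antioxidant response element core TGACNNNGC occurred once in the *Mt2* and once in the *Slc30a1* window (12.4% of promoters held it). The interferon gamma activated sequence TTCNNNGAA, held by 8.3% of promoters, and the palindromic glucocorticoid response element, held by 0.00913%, had no match in the 4 windows. A match is a description of the letters, and no match says nothing about the binding of a factor.

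The members covered a wide range of levels, and their order was the same in all 12 libraries. *Mt1* ranged from 1335 to 1721 TPM (median 1513) and its group means placed it between the 70th and the 85th of all listed genes. *Mt2* ranged from 575.0 to 888 TPM (median 715) and placed between the 154th and the 195th. *Mtf1* ranged from 7.99 to 11.3 TPM and *Slc30a1* from 3.86 to 5.61 TPM, and their group means lay between percentiles 44.8 and 47 and between percentiles 35.2 and 36.4 of the genes above 0. No library of 1 member overlapped a library of the next in the order, on this scale that is set per length. Together *Mt1* and *Mt2* took between 0.237% and 0.304% of the TPM of the listed genes. The plot of levels by library shows each value.

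**Figure D1:**
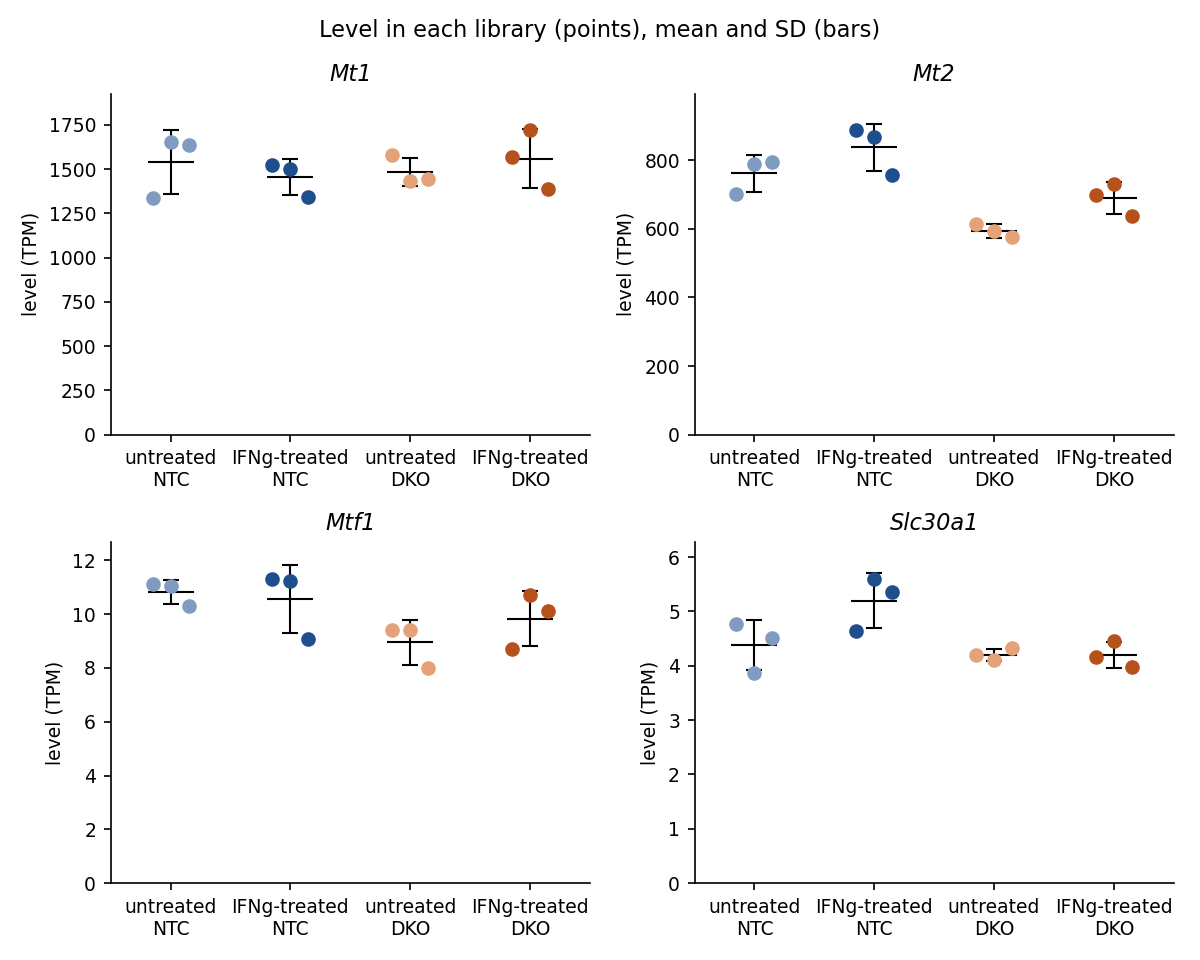
Level of each member in TPM (y axis, from 0) in the 4 groups (x axis), with a point for each of the 3 libraries and bars for mean and SD. *Mt2* sits at 575 to 614 TPM in untreated DKO against 700.3 to 794 TPM in untreated NTC libraries, whereas the *Mt1* groups overlap.

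*Mt1*, the more abundant metallothionein, was not called in any of the 7 comparisons. In untreated NTC libraries it stood at 1335, 1655 and 1637 TPM, and in untreated DKO libraries at 1578, 1436 and 1444 TPM. With IFNγ it stood at 1526, 1499 and 1342 TPM in NTC and at 1567, 1721 and 1388 TPM in DKO libraries. All 4 groups overlapped, and the lowest and the highest library differed 1.29-fold. The difference of DKO and NTC was −0.05 on the log2 scale without IFNγ (95% confidence interval −0.24 to 0.14, limma adjusted p = 0.706) and 0.10 with it (−0.09 to 0.29, adjusted p = 0.408). The change with IFNγ was −0.08 in NTC cells (−0.27 to 0.11, adjusted p = 0.574) and 0.07 in DKO cells (−0.13 to 0.26, adjusted p = 0.872). Over both treatments the genotype difference was 0.02 (−0.11 to 0.16).

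*Mt2* was lower in DKO than in NTC cells under both treatments. It measured 700.3, 790.1 and 794 TPM without IFNγ in NTC cells, against 614, 593 and 575.0 TPM in DKO cells. With IFNγ it stood at 888, 867 and 758 TPM in NTC and at 698, 730.2 and 639 TPM in DKO libraries. In both treatments the highest DKO library lay below the lowest NTC library. The log2 difference was −0.36 without IFNγ (SE 0.0671, 0.781-fold, limma adjusted p = 0.00107) and −0.28 with it (SE 0.0671, 0.824-fold, adjusted p = 0.00452). Over both treatments it was −0.32 (95% confidence interval −0.42 to −0.22). An exact permutation test of the log2 level within treatments gave p = 0.005 for that mean difference, the smallest these libraries allow, and 0.12 after Benjamini-Hochberg adjustment over the 24 member tests. Genotype differences were common: 36.4% of all tested genes were called without IFNγ, 43.3% with IFNγ and 53.2% over both treatments, and in 51.6% and 49.9% of tested genes the untreated and the treated groups did not overlap. Set against these shares, the 1, 2 and 2 of 4 members called in the 3 genotype comparisons do not stand out.

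*Mt2* had higher means with IFNγ in both genotypes. The difference was 0.14 on the log2 scale in NTC cells (95% confidence interval −0.01 to 0.28, limma adjusted p = 0.178), where the groups overlapped. In DKO cells it was 0.21 (0.07 to 0.36, adjusted p = 0.279), where every treated library was above every untreated library, as groups did not overlap in 14.7% of all tested genes in that comparison (36.6% in NTC cells). Only averaged over both genotypes did it pass the threshold, at 0.17 (SE 0.0475, adjusted p = 0.0367), and the exact permutation test within genotypes gave p = 0.025 (0.267 adjusted over the 24 tests). That call was lost with scaling to the same total (0.16, adjusted p = 0.0673) or by median ratios (0.15, adjusted p = 0.0683). It was also lost in 9 of the 12 fits that left out 1 library (adjusted p between 0.0511 and 0.0847), the exceptions being the fits without IFNγ-treated NTC replicate 3, IFNγ-treated DKO replicate 2 or IFNγ-treated DKO replicate 3. *Mt2* was the 1 member of 4 called in any IFNγ comparison, where the share of all tested genes called was 12.1% in NTC cells, 0.78% in DKO cells and 10.2% over both. The difference of the IFNγ responses between DKO and NTC was called for 0.0343% of tested genes and for 0 of 4 members in the limma fit, and 0 of the 4 members had an unadjusted p under 0.05 there. For *Mt2* it was 0.08 (−0.13 to 0.28).

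The proportion of the neighbours was therefore compared directly, since a ratio within a library does not depend on how libraries are scaled. *Mt1* TPM divided by *Mt2* TPM was 1.91, 2.09 and 2.06 in untreated NTC libraries and 2.57, 2.42 and 2.51 in untreated DKO libraries. With IFNγ it was 1.72, 1.73 and 1.77 in NTC and 2.24, 2.36 and 2.17 in DKO libraries. Each DKO library had a higher ratio than each NTC library, and within a genotype each treated library had a lower ratio than each untreated library. For levels of single genes, the genotypes did not overlap in 51.6% of tested genes without IFNγ and in 49.9% with it. Treated and untreated groups did not overlap in 36.6% in NTC and 14.7% in DKO cells. Ratios of other gene pairs were not examined, so how often a ratio separates the groups is not known. The ratio was 1.24-fold higher in DKO cells without IFNγ and 1.30-fold higher with it, log2 differences of 0.31 and 0.38 beside a pooled SD between replicates of 0.0528. With 3 libraries against 3, each exact permutation test gave p = 0.1, the smallest possible. Over both treatments the log2 difference was 0.34, and the exact permutation test within treatments gave p = 0.005, again the smallest possible (0.015 adjusted over 6 ratio tests). With IFNγ the log2 ratio changed by −0.22 in NTC and by −0.15 in DKO cells, with a mean of −0.18 (exact permutation test, p = 0.005, adjusted 0.015). The difference between those changes was 0.07 and was not tested. Both transcripts are short (549 and 511 bases in the reference transcripts), and the TPM of short transcripts depend on the fragment length assumed for each library, whose part in the ratio was not tested.

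**Figure D2:**
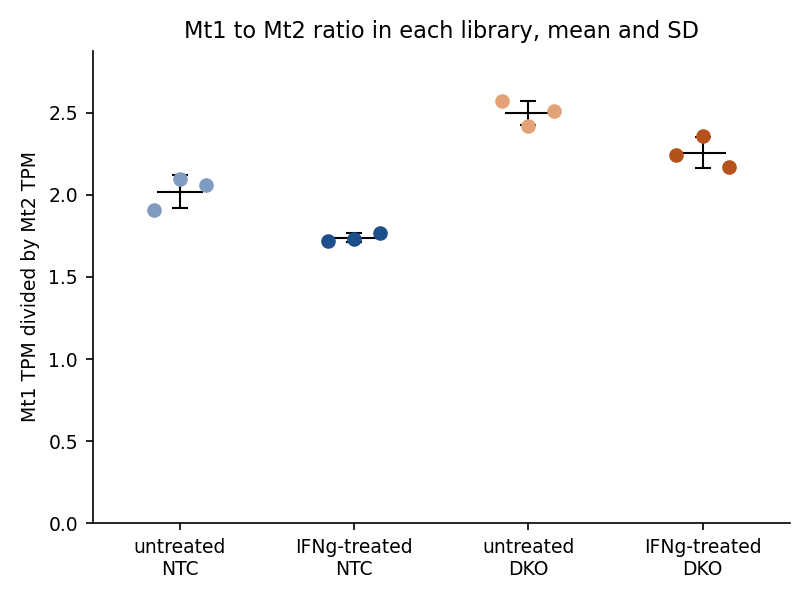
Ratio of *Mt1* TPM to *Mt2* TPM (y axis, from 0) in the 4 groups (x axis), with a point for each of the 3 libraries and bars for mean and SD. The 6 DKO libraries lie between 2.17 and 2.57 and the 6 NTC libraries between 1.72 and 2.09.

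Within groups, by contrast, both metallothioneins moved together from library to library. Their deviations from the group means, on the log2(TPM + 1) scale, had the same sign in 12 of 12 libraries and a Pearson correlation of 0.94, compared with 0.29 for the levels themselves over the 12 libraries. Untreated NTC replicate 1 was low for both, at −0.20 for *Mt1* and −0.12 for *Mt2*. IFNγ-treated DKO replicate 3 was low at −0.16 and −0.11, and IFNγ-treated NTC replicate 3 at −0.11 and −0.14. Of the 11662 other tested genes, 12 (0.103%), *Mt2* among them, had a correlation of deviations with *Mt1* at or above that value, and the median over all of them was −0.04. The points share libraries and therefore any scaling of a library, and the correlation is a description over 12 libraries. The corresponding values were lower for *Mtf1*, at 0.29 with *Mt1* and 0.46 with *Mt2*, and negative for *Slc30a1*, at −0.22 and −0.26.

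**Figure D3:**
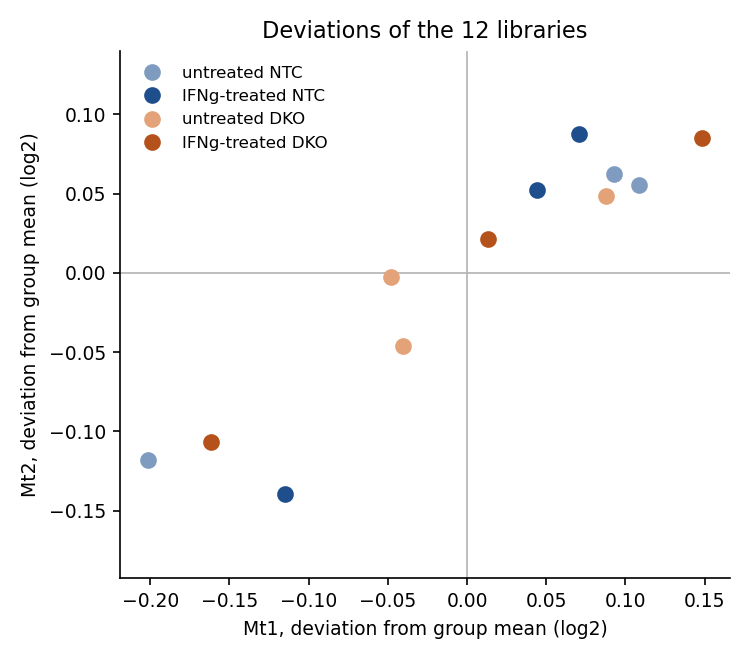
Deviation of *Mt2* (y axis) against that of *Mt1* (x axis) from the mean of their group, in log2(TPM + 1), with a point for each of the 12 libraries colored by group. All points lie where both deviations have the same sign, from −0.20 to 0.15 for *Mt1* and from −0.14 to 0.09 for *Mt2*.

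*Mtf1*, the transcription factor that responds to zinc, had lower means in DKO cells, a difference called only over both treatments. It measured 11.1, 11.04 and 10.3 TPM without IFNγ in NTC cells, against 9.42, 9.43 and 7.99 TPM in DKO cells. With IFNγ it stood at 11.3, 11.2 and 9.09 TPM in NTC and at 8.69, 10.7 and 10.1 TPM in DKO libraries. The untreated groups did not overlap, as in 51.6% of all tested genes, and the treated groups did. The log2 difference was −0.25 without IFNγ (95% confidence interval −0.46 to −0.04, limma adjusted p = 0.0569) and −0.09 with it (−0.30 to 0.12, adjusted p = 0.473). The untreated difference passed the threshold in 4 of the 9 alternatives that kept all libraries of the comparison. It passed when only the 6 untreated libraries were fitted (adjusted p = 0.0331) and after correction for GC content and gene length (0.0397). Replicate number in the fit, alone or with that correction, gave the other passes. Of 12 fits without 1 library it passed in 2, without IFNγ-treated NTC replicate 3 (0.034) or IFNγ-treated DKO replicate 1 (0.0471). Over both treatments the genotype difference was −0.17 (SE 0.068, limma adjusted p = 0.0486). That call was lost with scaling to the same total (−0.11, adjusted p = 0.211) and by median ratios (−0.15, 0.0792), and in 8 of 12 fits without 1 library (adjusted p from 0.0526 to 0.124), the exceptions being the fits without IFNγ-treated NTC replicate 3, untreated DKO replicate 1, untreated DKO replicate 2 or IFNγ-treated DKO replicate 2. With IFNγ the change was −0.04 in NTC cells (−0.25 to 0.17) and 0.12 in DKO cells (−0.09 to 0.33), neither of them called. The overlapping gene *1110065P20Rik* differed between DKO and NTC by −0.21 without IFNγ and by 0.23 with it, neither of them called. Its part in the *Mtf1* values was not tested.

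*Slc30a1*, the zinc exporter of the plasma membrane, was lower in DKO than in NTC cells after IFNγ, with a call that depended on the fit. It measured 4.77, 3.86 and 4.51 TPM without IFNγ in NTC cells, against 4.20, 4.10 and 4.32 TPM in DKO cells, which overlapped. With IFNγ it stood at 4.64, 5.61 and 5.35 TPM in NTC and at 4.15, 4.45 and 3.98 TPM in DKO libraries. These did not overlap, as in 49.9% of all tested genes in that comparison. The log2 difference was −0.25 with IFNγ (SE 0.09, limma adjusted p = 0.0364) and −0.04 without it (95% confidence interval −0.24 to 0.15, adjusted p = 0.736). The call with IFNγ was lost without IFNγ-treated NTC replicate 2 (adjusted p = 0.127) or 3 (0.0972), or IFNγ-treated DKO replicate 1 (0.0825) or 3 (0.0946). It was also lost with scaling to the same total (−0.18, 0.118) and by median ratios (−0.23, 0.0534). With no filter on low values, with replicate number in the fit and with only the 6 treated libraries it was lost too. Of the 9 alternatives that kept all libraries of the comparison, 4 kept the call. IFNγ changed *Slc30a1* by 0.20 in NTC cells (0.01 to 0.40, adjusted p = 0.138) and by −0.00 in DKO cells (−0.20 to 0.19, adjusted p = 0.998). The test of the difference between these responses gave −0.21 (−0.48 to 0.07, adjusted p = 0.525), so a different response of the genotypes was not shown. The plot of differences gives all members and comparisons side by side.

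**Figure D4:**
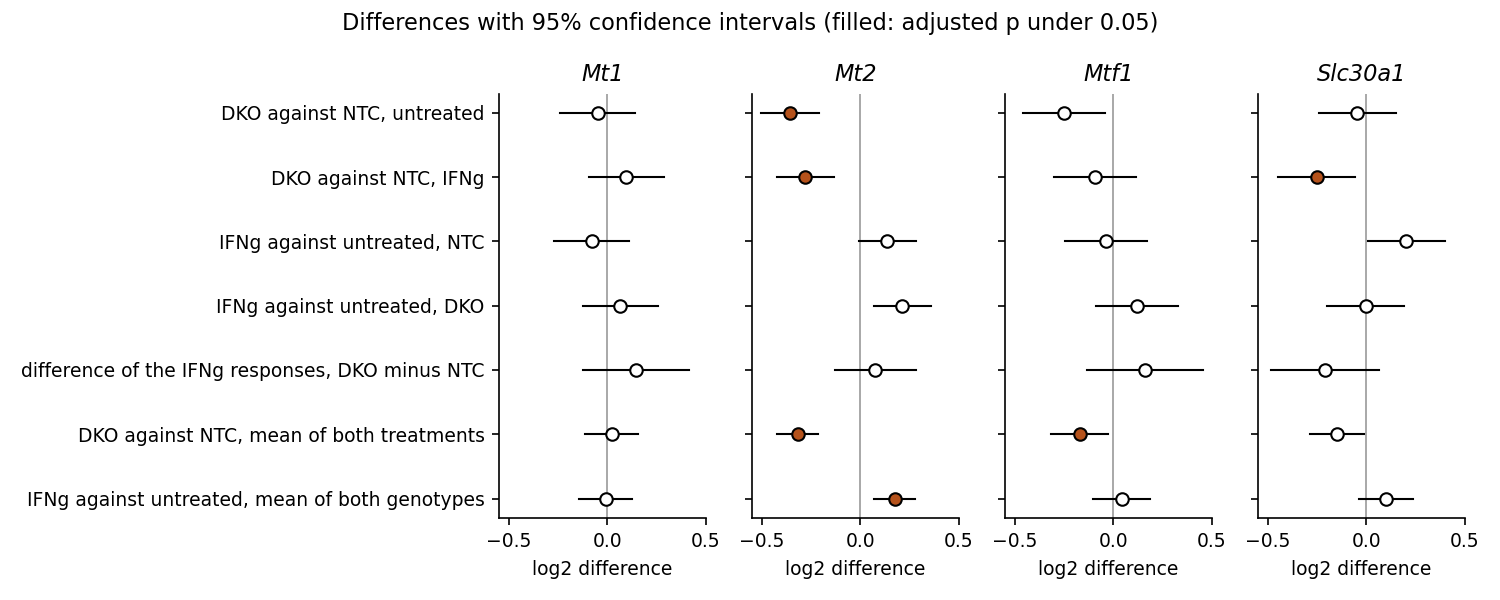
Log2 difference (x axis, on the log2(TPM + 1) scale) of each member in the 7 comparisons (y axis), with lines for 95% confidence intervals and filled points for an adjusted p under 0.05. *Mt2* is filled in the 3 genotype comparisons and in the IFNγ comparison over both genotypes, and no point of *Mt1* is filled.

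The remaining metallothioneins of the cluster were hardly detected. *Mt3*, known mainly from the brain, reached at most 0.445 TPM, and *Mt4*, known from stratified epithelia, was listed at 0 in all 12 libraries. Neither passed the filter.

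Among the zinc transporters, the genes with the clearest genotype differences were not members. Of 10 SLC30 genes, most but not all of whose products move zinc out of the cytosol, 6 were tested and 2 were listed at 0 in every library. Without IFNγ 0 were called higher and 2 lower in DKO cells, and with IFNγ 1 higher and 3 lower, beside 36.4% and 43.3% of all tested genes called in either direction. The median log2 difference of the tested genes was −0.03 and −0.19, beside −0.01 and −0.01 over all tested genes. *Slc30a4*, a transporter of intracellular vesicles, measured 14.4, 13.4 and 13.7 TPM without IFNγ in NTC cells, against 8.28, 8.56 and 8.52 TPM in DKO cells. It was lower, at −0.65 without IFNγ (limma adjusted p = 9.14e-06) and at −0.74 in treated cells (2.68e-06). *Slc30a9*, linked to mitochondrial zinc, averaged 89.3 TPM in treated NTC and 68.5 TPM in treated DKO libraries (−0.38, adjusted p = 0.000117), while its untreated call (−0.15, adjusted p = 0.0448) was lost with scaling to the same total (0.177) and by median ratios (0.065). *Slc30a7*, a transporter of the Golgi, was higher in DKO cells with IFNγ (0.22, adjusted p = 0.0185). With IFNγ in NTC cells, 0 of the 6 tested genes had a difference below 0, and their median was 0.14. Only *Slc30a9* was called there (0.22, limma adjusted p = 0.0231), a call lost after correction for GC content and gene length (0.218).

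Of 14 SLC39 genes, whose products bring zinc into the cytosol, 9 were tested. Without IFNγ 4 were called higher and 1 lower in DKO cells, and with IFNγ 5 higher and 2 lower, beside the same 36.4% and 43.3% of all tested genes, with medians of 0.04 and 0.14. *Slc39a10* (ZIP10) of the plasma membrane measured 12.2, 12.97 and 13.8 TPM without IFNγ in NTC cells, against 23.1, 22.6 and 23.5 TPM in DKO cells. The difference was 0.78 without IFNγ (SE 0.0655, limma adjusted p = 1.42e-06) and 0.64 in treated cells (7.01e-06). No DKO library overlapped an NTC library. Within a treatment the genotypes did not overlap in 51.6% of all tested genes without IFNγ and in 49.9% with it. *Slc39a6* (ZIP6), a close relative of ZIP10, was higher by 0.26 and 0.30 (adjusted p = 0.000275 and 8.39e-05). *Slc39a7*, which releases zinc from the endoplasmic reticulum and Golgi, was higher by 0.19 and 0.33 (adjusted p = 0.025 and 0.000774). *Slc39a13* fell with IFNγ in NTC cells (−0.28, adjusted p = 0.0268), and that call was lost after correction for GC content and gene length (−0.11, 0.385). With scaling to the same total, the genes called lower in DKO cells were 0 without and 0 with IFNγ and those called higher remained 4 and 5 in number. That scaling also moved the median difference over all tested genes, from −0.01 and −0.01 to 0.04 and 0.07. After correction for GC content and gene length, 4 were called higher and 2 lower without IFNγ, and 4 higher and 3 lower with it. The plot of zinc transporters shows the tested genes of both families.

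**Figure D5:**
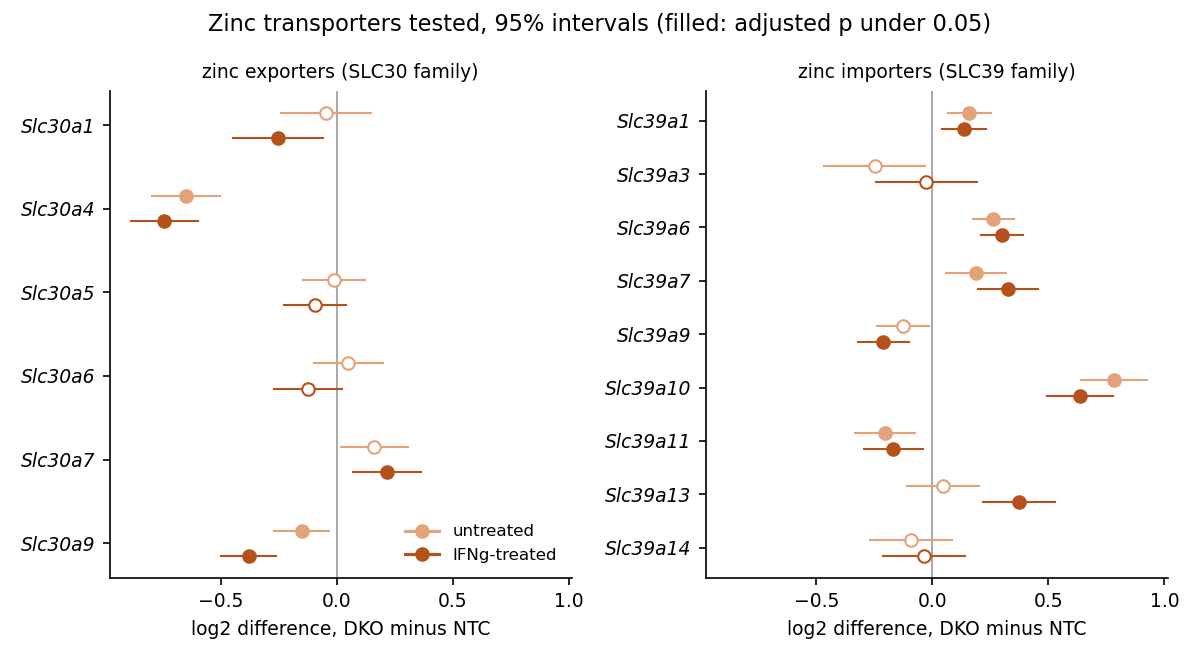
Log2 difference of DKO minus NTC (x axis, log2(TPM + 1) scale) for the tested SLC30 and SLC39 genes (y axis), untreated in light and IFNγ-treated in dark color, with lines for 95% confidence intervals and filled points for an adjusted p under 0.05. *Slc30a4* lies farthest to the left, at −0.65 and −0.74, and *Slc39a10* farthest to the right, at 0.78 and 0.64.

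Other genes reported to respond to MTF-1 did not move in 1 direction. Of 5 tested, the calls in DKO cells were 0 higher and 2 lower without IFNγ and 1 higher and 2 lower with it. Of all tested genes, 36.4% and 43.3% were called in either direction. The median differences of the 5 were −0.05 and 0.07. *Ndrg1*, a gene also induced by hypoxia, averaged 96.2 TPM in untreated NTC and 66.1 TPM in untreated DKO libraries (−0.53, limma adjusted p = 3.11e-06). *Csrp1*, which encodes a LIM domain protein with bound zinc, was lower (−0.25, adjusted p = 0.000567), and its call with IFNγ (−0.16, adjusted p = 0.007) was lost with scaling to the same total (0.177). *Sepw1*, a selenoprotein gene, was higher with IFNγ (0.30, adjusted p = 0.000338). None of the 5 was called in an IFNγ comparison by limma.

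Copper-handling genes were considered because metallothioneins also bind copper. All 11 were tested, and 2 were called higher and 0 lower in DKO cells both without and with IFNγ, a smaller share than the 36.4% and 43.3% of all tested genes. With scaling to the same total, 4 were called higher with IFNγ. Without that scaling, 4 were called higher and 1 lower over both treatments, beside 53.2% of all tested genes. The lower call, of *Ccs*, was lost with scaling to the same total and by median ratios (limma adjusted p = 0.318 and 0.0786). *Atox1*, a copper chaperone, averaged 193 TPM in untreated NTC and 231 TPM in untreated DKO libraries (0.26, limma adjusted p = 0.0012). Its call with IFNγ (0.27, adjusted p = 0.000736) was lost after correction for GC content and gene length (0.09, 0.22). *Atp7a*, a copper-exporting ATPase, was higher in untreated DKO cells (0.19, adjusted p = 0.0172), and *Cox17*, a mitochondrial copper chaperone, in treated DKO cells (0.24, adjusted p = 0.0239). With IFNγ, *Atp7a* rose (0.23, adjusted p = 0.0225) and *Sco2*, which delivers copper to cytochrome oxidase, fell (−0.56, adjusted p = 0.0263) in NTC cells, and both calls were lost after correction for GC content and gene length (0.206 and 0.0904).

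Genes driven by the other known inducers of metallothioneins were counted in the same way, beside the same 36.4% and 43.3% of all tested genes called without and with IFNγ. The median differences without and with IFNγ were −0.06 and 0.09 for the glucocorticoid receptor targets, 0.04 and −0.04 for the NRF2 targets and 0.25 and 0.30 for the heat shock genes. Of 7 tested glucocorticoid receptor targets, the calls in DKO cells were 1 higher and 1 lower without IFNγ and 2 higher and 0 lower with it. *Fkbp5*, a chaperone of the receptor, was higher by 0.26 without IFNγ (limma adjusted p = 0.00157), while *Klf9* was lower (−0.60, adjusted p = 0.00299). Of 7 NRF2 targets, the genes of the oxidative stress response, 1 was called higher and 3 lower without IFNγ, and 2 higher and 2 lower with it. *Slc7a11*, the cystine transporter, measured 30.0, 20.9 and 24.5 TPM without IFNγ in NTC cells, against 7.09, 8.91 and 6.73 TPM in DKO cells. It was lower (−1.60, adjusted p = 2.27e-06), and *Hmox1*, heme oxygenase, was lower as well (−0.61, adjusted p = 2.24e-06). Of 5 tested heat shock genes, 3 were called higher and 0 lower in DKO cells under both treatments, namely *Hsph1* (0.67 without IFNγ, adjusted p = 1.31e-05), *Hspa8* (0.25, 0.00038) and *Dnajb1* (0.28, 0.00145). *Hsp90aa1* rose with IFNγ in NTC cells (0.26, adjusted p = 0.0161), a call lost after correction for GC content and gene length (0.0635), and no other gene of these 3 lists was called with IFNγ in NTC or DKO cells.

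The genes most like each member over the 12 libraries were ranked by Pearson correlation of log2(TPM + 1), which here also carries the group differences and the shared libraries. For *Mt1* they included *Zhx3* (0.91) and *Ube2o* (0.89), and for *Mt2* they were *Baiap2l1* (0.96), *Plekha2* (0.95) and *Tmem42* (0.95). For *Mtf1* they were *Tead1* (0.88), *C130039O16Rik* (0.87) and *Rbm11* (0.85), and for *Slc30a1* they were *Prepl* (0.92), *Krr1* (0.91) and *Epc2* (0.91). *Baiap2l1* averaged 13.5 and 15.1 TPM in untreated and treated NTC and 10.8 and 12.7 TPM in untreated and treated DKO libraries, an order of groups like that of *Mt2*. Between members the highest such correlation was 0.71, of *Mt2* with *Mtf1*. No member was among the 3 genes most like another member.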

How the data were processed

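RNA-seq values of 12 libraries were used as deposited. Per the labels and the methods, the authors estimated expression with RSEM 1.2.4 calling Bowtie on a merged annotation and passed unaligned reads to TopHat 20.8b against GRCm38. The deposited values are TPM, although they are described as counts. They are not whole numbers. Over the listed genes they sum to 805782 to 827191 in DKO and to 844185 to 874612 in NTC libraries, so the sums differ by genotype. A scaling between libraries is not given in the sources used here.

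log2(TPM + 1) of the 11663 genes that reached 1 TPM in 3 or more libraries was fitted with limma 3.58.1 (R 4.3.3), with 1 mean per group and a prior variance following expression. The 7 comparisons were drawn as contrasts, with Benjamini-Hochberg adjustment over all tested genes and a threshold of 0.05. On this scale fold changes of low genes are understated. Members and the ratio of *Mt1* to *Mt2* were also tested by exact two-sided permutation. Coordinates came from GENCODE M21 and promoters from RefSeq, and calculations used Python 3.11.15 with scipy 1.17.1.

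The members and gene lists were chosen with earlier results of these data known. Named genes were the members, *Mbnl1* and *Mbnl2*, up to 4 called genes per list and comparison by smallest adjusted p, and the 3 genes most like each member. Some genes that this rule or the lists would name are not reported here. Of the markers of other cell types only *Cd68* was tested, and overlapping genes and the genes of the IFNγ check are named in addition. Alternatives were a pseudocount of 0.1, no filter, a replicate block, each library left out, only the 6 libraries of a comparison, 2 other scalings, correction for GC content and gene length, a prior variance without trend, and a pseudocount of 1 in the ratio.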

Additional observations from a re-analysis of the deposited data

How the results depend on the processing

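*Mt2* was called lower in DKO cells under every alternative run, with log2 differences from −0.42 to −0.31 without IFNγ, from −0.35 to −0.19 with it and from −0.35 to −0.25 over both, and the differences of the *Mt1* to *Mt2* ratio, for which only a pseudocount of 1 and each library left out were tried, kept their direction under these. The other counts of members called moved. Without IFNγ, 2 members instead of 1 were called with the replicate block, with only the 6 libraries, and after correction for GC content and gene length, alone or with the replicate block. With IFNγ, 1 instead of 2 was called with no filter, the replicate block (*Slc30a1* at an adjusted p of 0.0569), only the 6 libraries, the same total or median ratios. Over both treatments, 1 instead of 2 was called with no filter, the same total or median ratios, and 3 after correction for GC content and gene length, alone or with the replicate block (*Slc30a1* at adjusted p of 0.0132 and 0.0232). For IFNγ over both genotypes, 0 instead of 1 was called with no filter, the same total, median ratios or no trend in the prior variance. Leaving out 1 library gave 1 to 2 calls in each of the 3 genotype comparisons and 0 to 1 for IFNγ over both genotypes. The replicate numbers did not pair the libraries: deviations of same-numbered libraries correlated over 0.1 in 2 of 12 pairs (−0.18 to 0.12), and the block moved the genes called without IFNγ from 4247 to 4063. Over all tested genes, the count called for IFNγ in NTC cells was 1411, against 356 with no filter, 491 after that correction (368 with the block as well), 737 with no trend in the prior variance and 317 to 2023 without 1 library. For IFNγ over both genotypes it was 1194, against 523, 751 (635), 756 and 504 to 2283. For the difference of the responses it was 4, against 17 with no filter, 2 with the block and 0 to 7 without 1 library. The cause of these shifts was not tested. TPM keep no depth, so counting error for the low members *Mtf1* and *Slc30a1* is unknown.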
